A study of Mus musculus with 24 samples.

Results

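The genes described here carry glucose into cells and break it down through glycolysis and the citrate cycle, and they were measured in the hippocampus of mice after a night with or without corticosterone. They were taken as all array probes, other than control probes, whose transcript accession maps to any of 36 listed gene symbols, and each gene is represented by its brightest probe, the one with the highest mean signal intensity over all channels. All 36 genes were found, with 67 probes, out of 23787 genes named by accession and 56605 gene probes on the array. They comprise 2 glucose transporters, 8 genes of upper glycolysis, 8 of lower glycolysis, 4 enzymes of fructose 2,6-bisphosphate, 4 gluconeogenic and anaplerotic enzymes, 5 genes of the pyruvate dehydrogenase step and 5 of the citrate cycle and malate exchange. A filter for signal well above background on 8 or more arrays kept 35 of the 36 genes and removed *Fbp2*.

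Glucose crosses the blood-brain barrier and the membranes of glia and neurons through facilitative transporters, and hexokinase traps it in the cell as glucose 6-phosphate. Glycolysis turns the sugar phosphate into pyruvate, and phosphofructokinase, which is activated by fructose 2,6-bisphosphate, is its main control point. Pyruvate is reduced to lactate or enters mitochondria, where the pyruvate dehydrogenase complex, switched off by pyruvate dehydrogenase kinases, feeds it into the citrate cycle; glucocorticoids are known to act on many genes of glucose handling outside the brain.

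Male Swiss-Webster mice, 12 weeks old at the start of the experiment and then kept singly to habituate, drank corticosterone (100 µg/ml, dissolved with 0.45% hydroxypropyl-β-cyclodextrin) or, as vehicle controls, water with the cyclodextrin alone through the 12 h of the dark phase. Whole hippocampi, which hold neurons, glia and vessel cells together, were taken during the first, the fifth or the ninth hour of the following light phase, the resting period. The 48 mice filled 24 two-color arrays on 3 slides, 8 arrays per hour, each with a control animal in Cy3 and a corticosterone-treated animal in Cy5. Treated and control animals were brothers from several litters, but no litter is given for an array, so relatedness was not modeled. The dyes were never exchanged, so the dye bias of a probe and a corticosterone effect of constant size cannot be told apart, while comparisons between hours lie within a dye. The median spot of an array had a raw intensity between 82.0 and 96.0 in Cy3 and between 120.5 and 160.5 in Cy5, and the number of arrays limits the precision. Signal intensity below means the normalized intensity, log2 fold changes are corticosterone-treated over control unless an hour is named, and a difference counted as significant at an adjusted p under 0.05 in limma over all 56605 probes.

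More of these genes were higher than lower in corticosterone-treated animals. Early on, in the first hour, 9 of the 36 genes were significantly higher (25%, against 10.5% of all named genes) and 5 lower (13.9%, against 10%). In the fifth hour, the counts were 14 higher (38.9%, against 10.3% of all named genes) and 3 lower (8.33%, against 10.4%). By the ninth hour, 10 genes were higher (27.8%, against 8.81%) and 1 was lower (2.78%, against 6.67%). The sets compared differ in signal: the filter for signal well above background kept 35 of the 36 genes and 39627 of 56605 gene probes. The part of signal in these shares was not tested. *Gapdh* is 1 of the 5 and 1 of the 3 lower genes, but its values turn positive with Aquantile normalization and in the authors' ratios. The median log2 fold change of the 36 genes was 0.08, 0.10 and 0.06 at the 3 hours, beside -0.00, 0.00 and 0.01 over all named genes, so the typical difference was small. The medians of the 36 genes include *Fbp2*, which was near background. *Slc2a3*, *Hk1*, *Pfkm*, *Aldoa*, *Eno1*, *Pdk2* and *Idh3a* were significantly higher at all 3 hours, and *G6pc3* was lower at all 3. Another 8 genes were higher and 4 lower at 1 or 2 of the hours, these 4 with *Gapdh*, which turns positive with Aquantile normalization and in the authors' ratios, and 16 genes differed significantly at none. The counts fell when some slides were left out, which also leaves fewer arrays. Without slide 2 the first hour gave 8 genes in place of 14. The fifth hour gave 8, 11 and 11 in place of 17 without slides 1, 2 and 3. Leaving out slide 1 gave 5 in place of 11 in the ninth hour. With the authors' deposited log2 ratios, the ninth hour gave 17 genes.

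**Figure D1:**
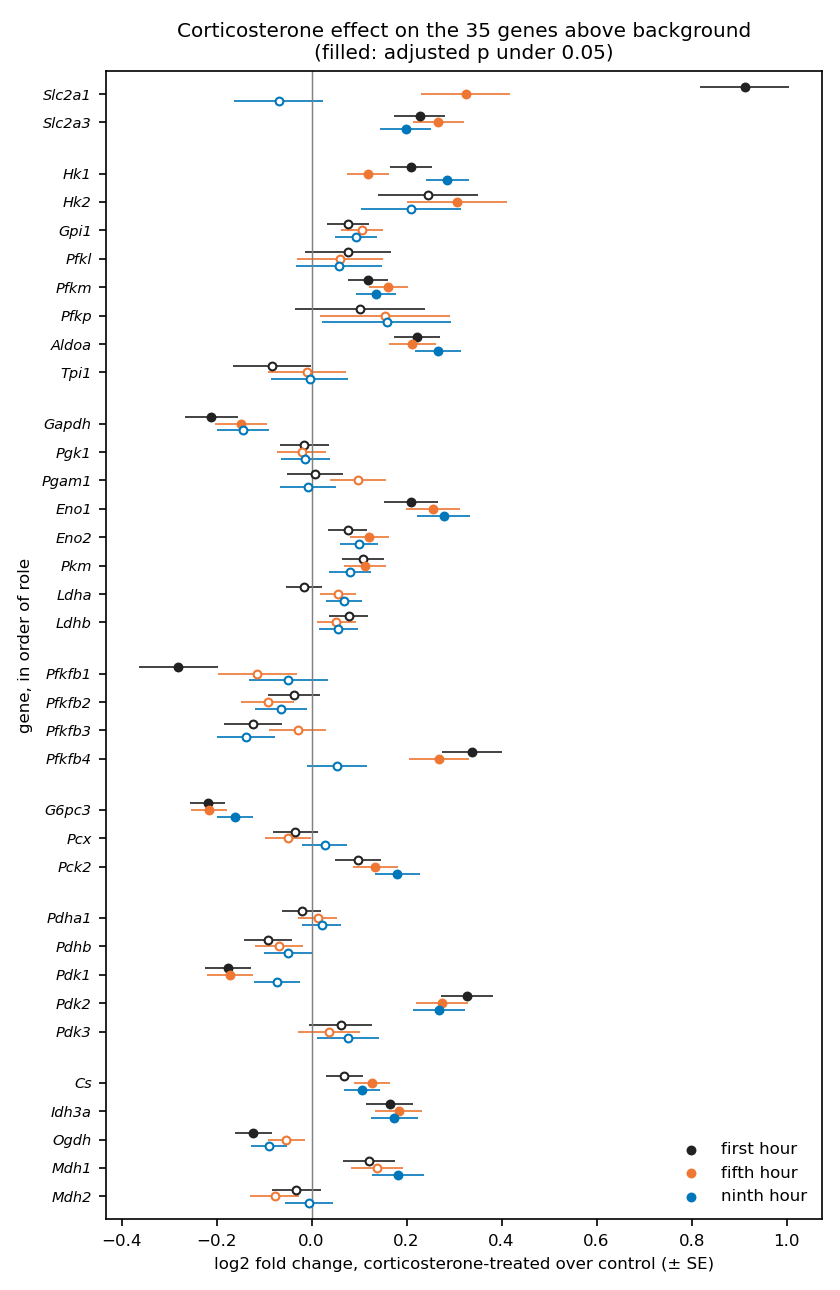
Log2 fold change of corticosterone-treated over control animals (x axis, with SE as bars) for the 35 genes above background (y axis, in order of role), with points for the first, the fifth and the ninth hour (n = 8 arrays each) and filled points for an adjusted p under 0.05. *Slc2a1* stands at 0.91, 0.32 and -0.07, and the next highest value, that of *Pfkfb4* during the first hour, is 0.34; the low *Gapdh* values turn positive with Aquantile normalization and in the authors' ratios.

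The largest difference belonged to *Slc2a1* (only probe A_51_P464738, gene at chr4:119108745-119137330 in GRCm38), which encodes GLUT1, the glucose transporter of brain capillaries and astrocytes. Its promoter is shown because *Slc2a1* and *Pfkfb4* were the only members whose signal fell significantly over the resting period of treated animals; capitals mark ACGTG (the core of a hypoxia response element) and GGGCGG (a GC box) on either strand, which do not overlap.
*Slc2a1* promoter, 250 bases before the start, chr4:119108495-119108744, plus strand, RefSeq GRCm38.p6: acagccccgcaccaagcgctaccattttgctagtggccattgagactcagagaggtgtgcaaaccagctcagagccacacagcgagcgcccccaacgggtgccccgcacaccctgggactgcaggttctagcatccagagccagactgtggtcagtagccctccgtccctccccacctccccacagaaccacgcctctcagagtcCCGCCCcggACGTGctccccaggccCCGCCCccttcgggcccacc
This stretch holds 1 ACGTG, 2 GGGCGG and 0 matches of AGAACA, the half-site of the glucocorticoid receptor. Of the 32851 RefSeq promoters of this length, 16.6% hold ACGTG, 32.7% GGGCGG and 16.1% AGAACA, so the matches describe the sequence and identify no site. Of the 36 genes, 34 have a promoter entry (not *Slc2a3* and *Idh3a*), and among these 18 hold ACGTG, 23 GGGCGG, 9 AGAACA, 9 the E-box CACGTG, which contains ACGTG, and 0 the full palindrome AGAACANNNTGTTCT. Over all 27025 genes with an entry, the shares were 18.5%, 35.4%, 18.2%, 6.86% and 0.0111%.

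During the first hour, *Slc2a1* signal intensity ranged from 6027 to 6602 (median 6215) in the 8 control animals and from 7924 to 19627 (median 11627) in the 8 corticosterone-treated animals. Every corticosterone-treated animal lay above every control animal. Its log2 fold change was 0.91 (adjusted p = 2.2e-10, SE 0.0939, higher on 8 of 8 arrays). In the fifth hour, values were 5506 to 8065 (median 6188) in control and 6799.5 to 10176 (median 7669.9) in treated animals, with ranges that overlapped. The log2 fold change was then 0.32 (adjusted p = 0.0093), still positive on 8 of 8 arrays, but not significant without slide 1 (0.24) or without slide 2 (0.36). In the ninth hour, control animals measured 6398 to 8411 (median 7240.1) and treated animals 5619 to 7749 (median 6852), and the ranges overlapped. No significant difference was left (-0.07, adjusted p = 0.67, higher on 4 of 8 arrays), and leaving out slide 3 turned this value to 0.02. Within slides 1, 2 and 3, the first-hour log2 fold change was 0.66, 0.83 and 1.17; with slide as a block it was 0.91 (adjusted p = 4.8e-10, range over the alternatives 9.6e-11 to 4.9e-05).

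The loss of the *Slc2a1* effect was itself significant. Between the first and the ninth hour, the log2 fold change of treatment dropped by 0.98 (adjusted p = 1.2e-06, SE 0.133), *Slc2a1* being the only member with a significant change of effect, against 1.44% of all named genes. A dye bias cancels in this value. It was significant under each of the 14 alternatives tried, from -0.74 to -1.15, and it was -0.65, -0.78 and -1.52 within slides 1, 2 and 3. From the first to the fifth hour, 0 of the 36 genes passed in limma (against 0.0631% of all named genes; 1 with an unadjusted p under 0.05), *Slc2a1* standing at -0.59 (adjusted p = 0.067). Without slide 1 (-0.76), or among the probes well above background alone, this earlier change was significant. From the fifth hour to the ninth, 0 of 36 passed (against 0.151%; 3 with an unadjusted p under 0.05), with -0.39 for *Slc2a1* (adjusted p = 0.48).

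**Figure D2:**
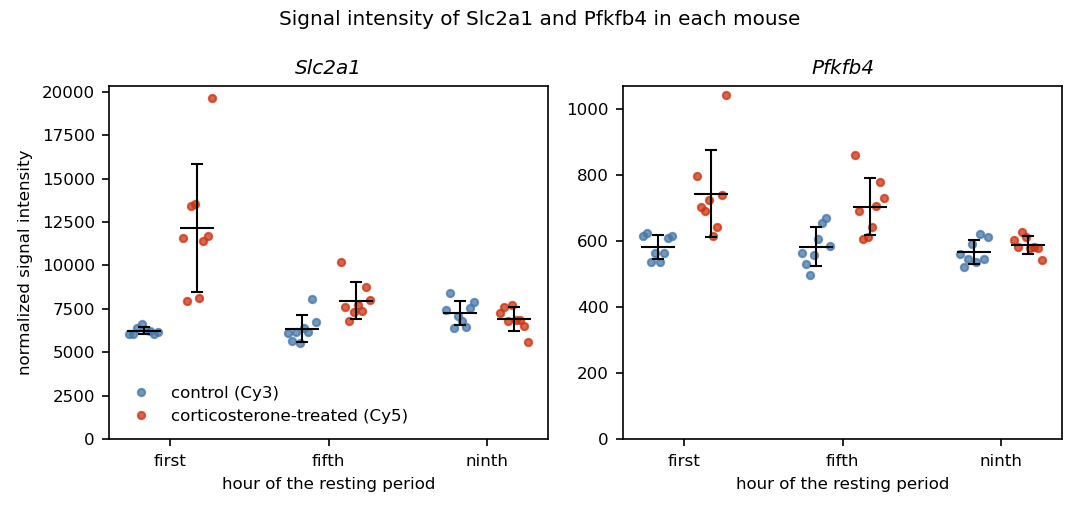
Normalized signal intensity (y axis, linear from 0) of *Slc2a1* and *Pfkfb4* in each mouse (points) by hour of the resting period (x axis), with black bars for the mean and SD of 8 mice. Treated *Slc2a1* values of the first hour, 7924 to 19627, all lie above the control values, while those of the ninth hour, 5619 to 7749, overlap them.

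Since GLUT1 is made by capillary cells and astrocytes, markers of both were read beside *Slc2a1*; in bulk tissue, fewer cells of a type and less RNA per cell cannot be told apart. Of 5 endothelial markers, 2 were higher and 2 lower in treated animals during the first hour, 2 higher and 1 lower in the fifth, and 1 higher and 1 lower in the ninth. Among all named genes, 10.5%, 10.3% and 8.81% were higher and 10%, 10.4% and 6.67% lower at the 3 hours. Neither these endothelial counts nor the marker counts of other cell types below were tested against these shares. Their summed signal intensity was 13875 to 17404 (median 15340.5) in control and 13362 to 14949.6 (median 14161) in treated animals of the first hour, with medians of 16034 and 14768 in the fifth and 15115 and 13898 in the ninth hour. The largest endothelial difference was that of the receptor gene *Flt1*, lower at -0.61, -0.46 and -0.36 (adjusted p = 1.5e-08, 6.7e-06 and 0.00036) on 8 of 8 arrays at each hour. The tight junction gene *Cldn5* went opposite to *Slc2a1*, with log2 fold changes of -0.35, -0.10 and 0.25 and a change of effect of 0.61 (adjusted p = 2.0e-05). *Ly6c1*, the brightest endothelial probe (mean 6369.9), went the same way at 0.29, 0.04 and -0.13, with a change of -0.42 (adjusted p = 0.010). Of 6 astrocyte markers, 2, 2 and 2 were higher and 0, 1 and 1 lower at the 3 hours. The medians of their sum were 95179 and 112217 in control and treated animals of the first hour, 101606 and 106450 of the fifth and 97338 and 105742 of the ninth, *Aldoc* being the brightest (mean 72599) and most of the sum. *Aldoc* is itself a glycolytic gene and is counted among the further pathway genes, and *Gfap*, *Slc1a2* and *Slc1a3* passed at no hour. The others disagreed, *Aldh1l1* being higher at 0.57, 0.51 and 0.42 (adjusted p = 1.3e-13, 7.9e-12 and 4.8e-09) on 8 of 8 arrays without overlap at each hour, and *Gja1* standing at -0.01, -0.17 and -0.23 (adjusted p = 0.91, 0.027 and 0.0037), lower on 4, 7 and 8 of 8 arrays. All 5 endothelial and 6 astrocyte probes were above background, and their part in the *Slc2a1* result was not tested.

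*Slc2a3* encodes GLUT3, the main neuronal glucose transporter. Control animals measured 3665 to 4519 (median 3856) during the first hour and treated animals 3677 to 5187 (median 4624). In the fifth hour, these ranges were 3764 to 4454 (median 3897) and 4179 to 5736 (median 4868), and in the ninth 3666 to 4414 (median 4121) and 4357 to 4846 (median 4662). The medians of treated animals were higher throughout, with an overlap of the ranges at each hour. *Slc2a3* log2 fold changes were 0.23, 0.27 and 0.20 (adjusted p = 0.0011, 0.00015 and 0.0055, SE 0.0534), higher on 8, 7 and 8 of 8 arrays. Without slide 3, the ninth-hour value was 0.16 and not significant. The dimmer *Slc2a3* probe gave 0.36, 0.23 and 0.14, significant during the first and the fifth hour. Unlike the change of *Slc2a1*, that of *Slc2a3* from the first hour to the ninth was -0.03 and not significant (adjusted p = 1.00). Neuronal markers were read beside it: of 4 pan-neuronal genes, 1 was lower during the first hour, 2 were higher in the fifth and 1 in the ninth. Their part in the *Slc2a3* result was not tested.

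Of the 8 genes of upper glycolysis, 3, 4 and 3 were significantly higher at the 3 hours and 0 lower. Among all named genes, 10.5%, 10.3% and 8.81% were higher and 10%, 10.4% and 6.67% lower. No role group was tested against these shares. *Hk1* encodes the main brain hexokinase, which traps glucose in the cell. Its signal intensity was 24162 to 25958 (median 24669.8) in control and 25492 to 33707 (median 28561) in treated animals of the first hour. The fifth hour gave 23953 to 26820.2 (median 24826) and 24603 to 30339.7 (median 27571), and the ninth 22706 to 27380.1 (median 24966) and 26103 to 33563 (median 30048). At each hour the lower treated animals lay within the control range and the median treated animal above it. *Hk1* log2 fold changes were 0.21, 0.12 and 0.29 (adjusted p = 0.00025, 0.035 and 3.1e-06, SE 0.0445), positive on 8, 8 and 8 of 8 arrays. The fifth-hour call was lost without slide 2 (0.12), without slide 3 (0.11) and with an offset of 0 for p values. The other *Hk1* probe had a signal intensity of only 34.9 and was above background in Cy3 on 8 of 24 arrays; a median over both probes gave 0.02, -0.05 and 0.06. *Hk2*, the insulin-responsive hexokinase, passed in the fifth hour (0.31, SE 0.106, adjusted p = 0.040, higher on 7 of 8 arrays), and its values were 0.24 and 0.21 at the other hours.

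*Pfkm* encodes the muscle type subunit of phosphofructokinase, the control point of glycolysis. Control animals had signal intensities of 14437 to 15377 (median 15065), 14042 to 17262 (median 15561) and 14377 to 17264 (median 15888) at the first, the fifth and the ninth hour. Treated animals had 14478 to 18041 (median 16364), 16213 to 19360.2 (median 17069.9) and 16241 to 18396 (median 17212). The ranges overlapped at each hour. *Pfkm* was higher by a log2 fold change of 0.12, 0.16 and 0.14 (adjusted p = 0.025, 0.0021 and 0.012, SE 0.0418, 7, 7 and 8 of 8 arrays). These were small differences that held less well: the first-hour call was lost without any 1 of the slides (0.12, 0.12 and 0.11), the fifth-hour call without slide 3 (0.12) and the ninth-hour call without slide 1 (0.16) or slide 3 (0.12). Aquantile normalization (0.08 and 0.10) and the authors' ratios (0.09 and 0.10) also ended the first-hour and ninth-hour calls. The liver and platelet type subunits *Pfkl* and *Pfkp* passed at no hour, with log2 fold changes of 0.08, 0.06 and 0.06 and 0.10, 0.16 and 0.16. *Aldoa*, the aldolase that splits fructose 1,6-bisphosphate, measured 124006 to 160462 (median 137051) in control and 140839 to 172718 (median 160465) in treated animals of the first hour. The same groups had 124012 to 151668 (median 134109) and 133263 to 172718 (median 156055) in the fifth and 124016 to 151681 (median 134815) and 151664 to 172718 (median 160467) in the ninth hour. Ranges overlapped at all 3 hours, and 3, 2 and 3 treated animals shared the top value, since quantile normalization gives each channel the same set of values. *Aldoa* log2 fold changes were 0.22, 0.21 and 0.27 (adjusted p = 0.00039, 0.00069 and 5.5e-05, SE 0.0486), higher on 7, 6 and 8 of 8 arrays, and they reached 0.47, 0.51 and 0.49 in the authors' ratios. *Gpi1*, the isomerase of glucose 6-phosphate, and *Tpi1*, the triose phosphate isomerase, passed at no hour (0.08, 0.11 and 0.09 and -0.08, -0.01 and -0.00), although a nearly as bright *Gpi1* probe passed in the fifth hour (0.10).

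In lower glycolysis, 1, 3 and 1 of the 8 genes were significantly higher at the 3 hours and 1, 1 and 0 lower, this 1 being *Gapdh*, whose sign turns with Aquantile normalization and in the authors' ratios. Among all named genes, 10.5%, 10.3% and 8.81% were higher and 10%, 10.4% and 6.67% lower. *Eno1* encodes the ubiquitous enolase, which makes phosphoenolpyruvate. During the first hour, its signal intensity was 32405 to 35539.6 (median 34064) in control and 29084 to 44308 (median 41242) in treated animals. The fifth hour gave 31993 to 40377 (median 33625) and 37549.8 to 46742 (median 40150.3), and the ninth 27325 to 38523 (median 33006) and 37400.2 to 44929 (median 40394). A single treated animal of the first hour lay below all controls, and a single control of the fifth hour lay among the treated animals. *Eno1* log2 fold changes were 0.21, 0.26 and 0.28 (adjusted p = 0.0043, 0.00051 and 0.00028, SE 0.0564), higher on 7, 8 and 7 of 8 arrays, the first not significant without slide 2 (0.18). A second bright *Eno1* probe passed at all 3 hours (0.25, 0.31 and 0.30), while the dimmest passed at none (0.11, 0.05 and -0.04). *Eno2*, the neuronal enolase, and *Pkm*, the pyruvate kinase of brain, passed in the fifth hour, at 0.12 (adjusted p = 0.016, 8 of 8 arrays) and 0.11 (adjusted p = 0.045, 7 of 8 arrays). At the first and the ninth hour *Eno2* stood at 0.08 and 0.10 and *Pkm* at 0.11 and 0.08, and neither effect changed significantly between hours. The second *Pkm* probe was significant during the first hour (0.27, 0.18 and 0.06). *Pgk1*, which makes ATP from 1,3-bisphosphoglycerate, stood at -0.02, -0.02 and -0.01, and *Pgam1*, the mutase after it, at 0.01, 0.10 and -0.01. *Ldha* and *Ldhb*, the subunits of lactate dehydrogenase, stood at -0.02, 0.06 and 0.07 and at 0.08, 0.05 and 0.06; none of these 4 genes passed at any hour by its brightest probe, though a dimmer *Pgam1* probe did in the fifth (0.14).

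*Gapdh*, the glyceraldehyde 3-phosphate dehydrogenase that is often used as a reference gene, gave different answers by probe and by scaling. Its brightest probe had signal intensities of 65063 to 83621 (median 75449) in control and 50919 to 69907 (median 64641) in treated animals of the first hour. The values were 63961 to 78496 (median 74066) and 60866 to 71342 (median 65077) in the fifth hour and 64691 to 86104 (median 75897) and 64299 to 72544 (median 67421) in the ninth. The ranges overlapped at each hour. Log2 fold changes of this *Gapdh* probe were -0.21, -0.15 and -0.14 (adjusted p = 0.0034, 0.039 and 0.055, SE 0.0554, lower on 7, 6 and 8 of 8 arrays), but they turned to 0.01, 0.07 and 0.08 with Aquantile normalization and to 0.02, 0.09 and 0.09 in the authors' ratios. Without slide 2, neither the first-hour nor the fifth-hour value was significant (-0.20 and -0.10), nor was the fifth without slide 1 (-0.14). At the 3 hours, the value was significant under 12, 9 and 5 of 15 alternatives, so the ninth-hour call was gained in some. Among the other 5 *Gapdh* probes, A_55_P2037425 was significantly higher in the fifth hour (0.20), so that *Gapdh* alone, of the 21 genes with several probes, had calls in both directions within an hour. No direction of *Gapdh* is therefore given.

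**Figure D3:**
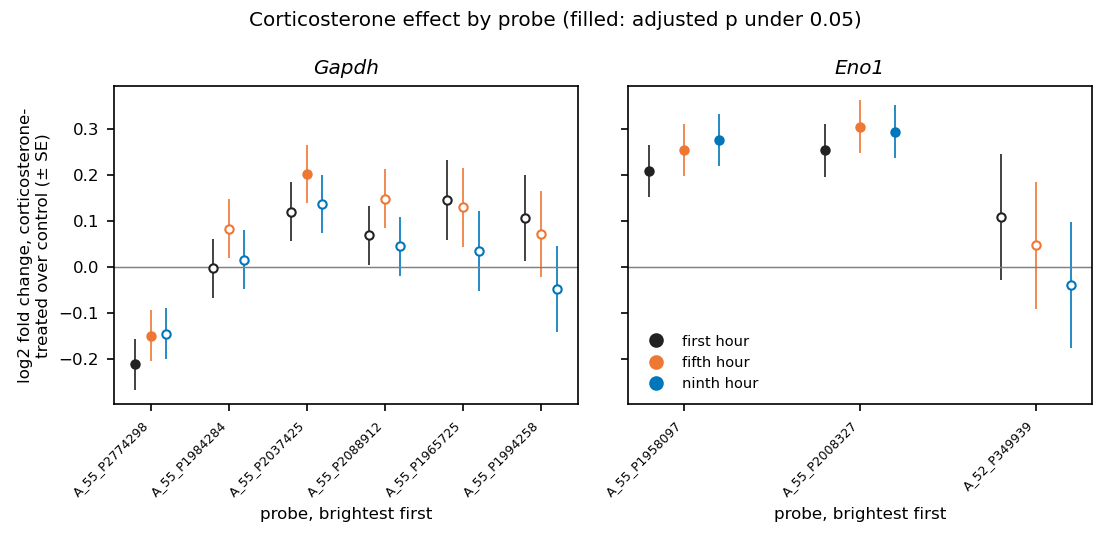
Log2 fold change of corticosterone-treated over control animals (y axis, with SE as bars, n = 8 arrays per hour) for each probe of *Gapdh* and *Eno1* (x axis, brightest first), with colors for the hours and filled points for an adjusted p under 0.05. The brightest *Gapdh* probe lies at -0.21, -0.15 and -0.14, values that turn positive with Aquantile normalization and in the authors' ratios, while the 2 brightest *Eno1* probes lie between 0.21 and 0.31.

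The 4 enzymes that make and break down fructose 2,6-bisphosphate, the activator of phosphofructokinase, did not move together: 1 was higher and 1 lower during the first hour, 1 higher in the fifth, and none passed in the ninth. These counts were not tested against the shares of all named genes given for upper and lower glycolysis. *Pfkfb4* (probe A_55_P1992959, gene at chr9:108988272-109032236 in GRCm38) encodes an enzyme of this family with both activities. Its promoter entry lies within the span of the annotated gene; capitals mark AGAACA (the half-site of the glucocorticoid receptor) and GGGCGG, which do not overlap.
*Pfkfb4* promoter, 250 bases before the start, chr9:108991652-108991901, plus strand, RefSeq GRCm38.p6: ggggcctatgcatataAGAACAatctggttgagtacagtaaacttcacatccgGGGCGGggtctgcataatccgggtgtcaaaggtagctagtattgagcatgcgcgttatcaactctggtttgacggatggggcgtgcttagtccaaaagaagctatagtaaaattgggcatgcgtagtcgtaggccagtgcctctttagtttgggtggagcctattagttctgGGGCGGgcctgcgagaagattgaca
It holds 1 AGAACA, 2 GGGCGG and 0 ACGTG, the shares of all promoters with each being those given beside *Slc2a1*. *Pfkfb4* signal intensity was 536 to 625 (median 586) in control and 614 to 1042 (median 713) in treated animals of the first hour. The fifth hour gave 498 to 670.0 (median 575) and 607 to 859.8 (median 699), and the ninth 522 to 623 (median 553) and 541 to 628 (median 582). A single treated animal stood far above the others in the first hour, the ranges overlapped at each hour, and in the ninth hour the treated range lay almost within that of controls. *Pfkfb4* log2 fold changes were 0.34, 0.27 and 0.05 (adjusted p = 7.6e-05, 0.0014 and 0.61, SE 0.0631), positive on 8, 8 and 6 of 8 arrays. Without slide 1, the fifth-hour value was 0.19 and no longer significant, and the ninth-hour value turned to -0.02. Within slides 1, 2 and 3, the first-hour value was 0.28, 0.30 and 0.41. Its effect did not change significantly by the ninth hour (-0.28, adjusted p = 0.14), so the loss seen for *Slc2a1* was not shown for *Pfkfb4*. Its second probe was not above background and gets no fold change. That probe had the opposite sign to the brightest at each hour and was called lower in the ninth.

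*Pfkfb1*, the liver and muscle form, was lower during the first hour (-0.28, SE 0.0833, adjusted p = 0.012, lower on 7 of 8 arrays) at a signal intensity of 74.2, and stood at -0.11 and -0.05 later. Its dimmer probe had the opposite sign at each hour and passed at none. *Pfkfb2*, the heart form, and *Pfkfb3*, the form with the highest kinase activity, passed at no hour (-0.04, -0.09 and -0.06 and -0.12, -0.03 and -0.14).

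Among the gluconeogenic and anaplerotic enzymes, *G6pc3* was lower at all 3 hours. It encodes the ubiquitous glucose 6-phosphatase, which frees glucose from glucose 6-phosphate in the endoplasmic reticulum, the reverse of the hexokinase step. Control animals measured 5787 to 6659 (median 5948) and treated animals 4730.2 to 5575 (median 5197) during the first hour. In the fifth hour, the values were 5774 to 6961 (median 6137) and 4905 to 5914 (median 5357), and in the ninth 5799 to 6909 (median 6391) and 5472 to 6050.1 (median 5600.2). All treated animals of the first hour lay below all controls, and the ranges overlapped at the later hours. *G6pc3* log2 fold changes were -0.22, -0.22 and -0.16 (adjusted p = 6.0e-06, 9.6e-06 and 0.00093, SE 0.0377), lower on 8, 8 and 8 of 8 arrays, and within slides 1, 2 and 3 the first-hour value was -0.19, -0.21 and -0.25. The ninth-hour value was -0.17 and not significant without slide 1. A dimmer *G6pc3* probe passed at no hour (-0.01, -0.04 and -0.08), so that a median over both probes brought the first value to -0.11.

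*Pck2*, the mitochondrial phosphoenolpyruvate carboxykinase, had signal intensities of 1461 to 1823 (median 1617), 1478 to 1877 (median 1618) and 1375 to 1601 (median 1520.0) in control animals of the first, the fifth and the ninth hour. Treated animals had 1545 to 1836 (median 1698), 1488 to 2074 (median 1780.0) and 1611 to 1947 (median 1687). Every treated animal of the ninth hour lay above every control, while the ranges overlapped earlier. *Pck2* log2 fold changes were 0.10, 0.13 and 0.18 (adjusted p = 0.12, 0.028 and 0.0043, SE 0.0476, higher on 6, 8 and 8 of 8 arrays), significant in the fifth and the ninth hour. Without slide 1 (0.10 and 0.22) or slide 3 (0.13 and 0.15), neither value was significant. The dimmer *Pck2* probe was higher during the first hour and the ninth (0.27, 0.11 and 0.22). *Pcx*, the pyruvate carboxylase that refills the citrate cycle, passed at no hour (-0.03, -0.05 and 0.03). *Fbp2*, a fructose 1,6-bisphosphatase, was above background on 0 of 24 arrays in Cy3 and on 1 in Cy5, and gets no fold change.

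At the pyruvate dehydrogenase step, *Pdk2* and *Pdk1* differed in opposite directions, while *Pdk3* and the enzyme subunits passed at no hour. *Pdk2* encodes the pyruvate dehydrogenase kinase that is most widely expressed; it switches the complex off. Its signal intensity was 2589.6 to 3248 (median 2879) in control and 2753 to 3972 (median 3742) in treated animals of the first hour. The fifth hour gave 2625 to 3314 (median 3061) and 3379 to 4146 (median 3655), and the ninth 2419.6 to 3352 (median 2942) and 3137 to 3851 (median 3462). A single treated animal of the first hour lay within the control range, the groups of the fifth hour were separate, and those of the ninth overlapped. *Pdk2* was higher at each hour, with log2 fold changes of 0.33, 0.27 and 0.27 (adjusted p = 7.2e-06, 0.00013 and 0.00030, SE 0.0547, higher on 8, 8 and 8 of 8 arrays). It passed at each hour under each of the 15 alternatives tried, and its first-hour values within slides 1, 2 and 3 were 0.38, 0.35 and 0.27. *Pdk1*, a kinase induced by hypoxia, was lower during the first (-0.18, adjusted p = 0.0044, lower on 7 of 8 arrays) and the fifth hour (-0.17, adjusted p = 0.0052, 7 of 8 arrays), although none of its 3 dimmer probes passed. *Pdk3*, another kinase, stood at 0.06, 0.04 and 0.08. *Pdha1* and *Pdhb*, the subunits of the E1 enzyme itself, stood at -0.02, 0.01 and 0.02 and at -0.09, -0.07 and -0.05.

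Of the 5 genes of the citrate cycle and malate exchange, 1, 2 and 3 were higher at the 3 hours and 1, 0 and 0 lower. Among all named genes, 10.5%, 10.3% and 8.81% were higher and 10%, 10.4% and 6.67% lower. *Idh3a*, the catalytic subunit of the NAD-dependent isocitrate dehydrogenase, measured 6835 to 8426 (median 7652) in control and 7714 to 9549 (median 8399) in treated animals of the first hour. It measured 6636 to 8435 (median 7367) and 7291 to 9577 (median 8398) in the fifth and 7050.0 to 8415 (median 7738) and 8316 to 9269 (median 8788) in the ninth hour. All 3 pairs of ranges overlapped, with the higher median in treated animals. *Idh3a* log2 fold changes were 0.16, 0.18 and 0.17 (adjusted p = 0.0092, 0.0036 and 0.0073, SE 0.0491), higher on 7, 8 and 8 of 8 arrays. Significance was lost without slide 1 at each hour (0.16, 0.16 and 0.19) and without slide 2 during the first (0.14). *Cs*, the citrate synthase that opens the cycle, was higher in the fifth (0.13, adjusted p = 0.0076, 8 of 8 arrays) and the ninth hour (0.11, adjusted p = 0.032, 8 of 8 arrays), while its dimmer probe stood at -0.10, -0.10 and -0.10 and did not pass. *Mdh1*, the cytosolic malate dehydrogenase, passed in the ninth hour (0.18, adjusted p = 0.013, 8 of 8 arrays, groups separate) and stood at 0.12 and 0.14 before, with no significant change between hours. The dimmer *Mdh1* probe stood at 0.05, 0.11 and 0.04 and passed at no hour. *Ogdh*, the first subunit of the oxoglutarate dehydrogenase complex, was lower during the first hour (-0.12, adjusted p = 0.0099, lower on 8 of 8 arrays), and its second probe gave -0.02, 0.04 and 0.05. *Mdh2*, the mitochondrial malate dehydrogenase, passed at no hour (-0.03, -0.08 and -0.01).

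Through the resting period of control animals, 0 of the 36 genes changed significantly in limma. From the first hour to the ninth, 0.811% of all named genes passed, and 3 of the 36 had an unadjusted p under 0.05, namely *Pfkfb3* (-0.16), *Pdk1* (-0.16) and *Cs* (0.08). From the first to the fifth hour, 0.00841% of all named genes passed and 0 of the 36 reached that unadjusted p. From the fifth hour to the ninth, the share was 0.0673%, and 3 of the 36 reached it. A count of 0 near such shares is no result about these genes. *Slc2a1* in control animals stood at 0.21 from the first hour to the ninth (adjusted p = 0.51).

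In treated animals, 2 of the 36 genes changed from the first hour to the ninth, against 6.10% of all named genes, and both fell. *Slc2a1* fell by 0.77 on the log2 scale (adjusted p = 1.9e-06, SE 0.110), with values of -0.38, -0.73 and -1.19 within slides 1, 2 and 3. *Pfkfb4* fell by 0.32 (adjusted p = 0.0027, SE 0.0740), a call lost without slide 1 (-0.35) and without slide 3 (-0.24). These hours held different animals, so no count of animals with the direction exists; the medians of treated animals dropped from 11627 to 6852 for *Slc2a1* and from 713 to 582 for *Pfkfb4*. *G6pc3* was just short of the threshold (0.13, adjusted p = 0.058) and passed, as a rise, with slide as a block (0.14), with outlier spots kept (0.14), among probes well above background (0.13) and with processed signals of the scanner software (0.15), the last of which also added *Cs*. From the first to the fifth hour, *Slc2a1* alone fell (-0.57, SE 0.110, adjusted p = 0.0023), against 0.824% of all named genes. That call was lost without slide 2 (-0.52), without slide 3 (-0.44) and with the Cy5 channel alone. From the fifth hour to the ninth, 0 of 36 genes passed in limma (against 1.08%; 4 with an unadjusted p under 0.05), among them *Pfkfb4* at -0.25 (adjusted p = 0.088).

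With both treatments averaged, 0 of the 36 genes changed from the first hour to the ninth in limma, against 5.85% of all named genes, and 9 had an unadjusted p under 0.05. Closest to the threshold were *Slc2a1* (-0.28, adjusted p = 0.053) and *Pfkfb4* (-0.18, adjusted p = 0.054). Under 5 alternatives 1 to 4 genes passed here, *Pfkfb4* in 4 of these.

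**Figure D4:**
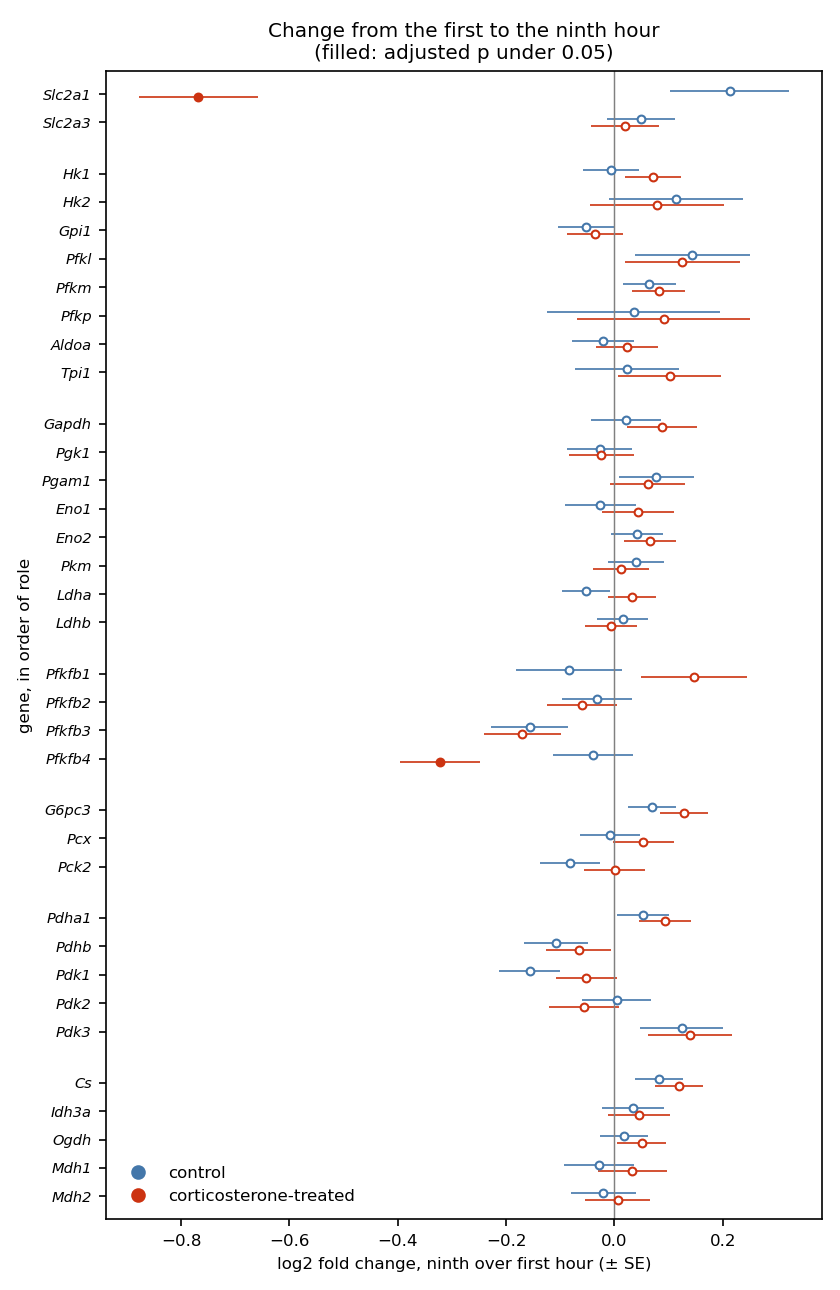
Log2 fold change from the first hour to the ninth (x axis, with SE as bars, n = 8 animals per group and hour) for the 35 genes above background (y axis, in order of role) in control and in corticosterone-treated animals, filled where the adjusted p is under 0.05. The filled points are *Slc2a1* at -0.77 and *Pfkfb4* at -0.32, both in treated animals.

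Of 71 further genes of the same pathways, all measured, 16 were higher and 10 lower in treated animals during the first hour (22.5% and 14.1%, against 10.5% and 10% of all named genes), 12 and 8 in the fifth (16.9% and 11.3%, against 10.3% and 10.4%), and 10 and 3 in the ninth (14.1% and 4.23%, against 8.81% and 6.67%). Beside *Slc2a1*, the insulin-regulated transporter *Slc2a4* (GLUT4) was higher during the first hour, with 85.5 to 124 (median 111) in control and 132 to 431 (median 181) in treated animals and no overlap. Its log2 fold changes were 0.85, 0.46 and 0.35 (adjusted p = 1.2e-05, 0.017 and 0.089, SE 0.130, higher on 8, 7 and 7 of 8 arrays), that of the fifth hour no longer significant without slide 1 (0.26) or slide 2 (0.53). The lactate and ketone carrier *Slc16a1* (MCT1) went the other way, with 1929 to 2619 (median 2278) in control and 1336 to 1827 (median 1576) in treated animals of the first hour, again without overlap. *Slc16a1* stood at -0.53, -0.45 and -0.23 (adjusted p = 6.1e-09, 3.2e-07 and 0.0061, lower on 8, 7 and 8 of 8 arrays), the ninth-hour value not significant without slide 1 (-0.23). Beside *G6pc3*, the glucose 6-phosphate carrier *Slc37a4* of the endoplasmic reticulum was higher, at 0.28, 0.24 and 0.05 (adjusted p = 1.3e-05, 0.00011 and 0.51, 8, 8 and 5 of 8 arrays). *Gpd1*, the glycerol 3-phosphate dehydrogenase of the cytosol, was higher at 0.33, 0.27 and 0.15, the last not significant without slide 2 (0.12), and *Hk3*, a minor hexokinase, stood at -0.50, -0.47 and -0.07, significantly lower in the first 2 of these hours, where a median over its 2 probes gave only -0.17 and -0.08.

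Beside *Pdk2*, the kinase *Pdk4*, a known target of glucocorticoids and fasting, had signal intensities of 457 to 590.4 (median 498) in control and 662 to 1533 (median 946) in treated animals of the first hour, with no overlap. It was higher by 0.86 (adjusted p = 2.1e-10, SE 0.0876, 8 of 8 arrays) and stood at -0.02 and -0.03 later. Its change of effect was -0.88 to the fifth (adjusted p = 2.6e-05) and -0.89 to the ninth hour (adjusted p = 2.7e-06). At either interval, *Pdk4* was the only 1 of the 71 genes with such a change (1.41%). The shares of all named genes were 0.0631% to the fifth and 1.44% to the ninth hour. The opposing phosphatase *Pdp2* was higher at each hour, at 0.43, 0.59 and 0.44 (adjusted p = 1.5e-05, 3.2e-08 and 2.3e-05, 8, 8 and 8 of 8 arrays), or 0.26, 0.35 and 0.27 as a median over its probes. In the citrate cycle, *Idh2*, the NADP-dependent mitochondrial isocitrate dehydrogenase, separated the groups at each hour, with 5100.4 to 6999.9 (median 5887) in control and 8644 to 10915 (median 9378) in treated animals of the first. Its log2 fold changes were 0.66, 0.68 and 0.43 (adjusted p = 2.9e-12, 2.7e-12 and 5.7e-07, SE 0.0600, 8, 8 and 8 of 8 arrays). *Sdhd*, a subunit of succinate dehydrogenase, and *Idh1*, the cytosolic isocitrate dehydrogenase, stood at -0.17, -0.13 and -0.09 and -0.20, -0.12 and -0.01, significantly lower during the first and the fifth hour and during the first. The *Sdhd* calls were lost without slide 1 in the first (-0.12) and without slide 3 in the fifth hour (-0.08), and that of *Idh1* without slides 1, 2 or 3 (-0.19, -0.23 and -0.19) and with Aquantile (-0.19). *Pklr* was called at each hour but was not well above background and gets no fold change. Between hours, the hexokinase-like *Hkdc1* was the only 1 of the 71 to change in control animals (1.41%, against 0.811% of all named genes). It rose by 0.39 from the first hour to the ninth (adjusted p = 0.0088), no longer significant without slide 1 (0.33). *Hkdc1* rose alike in treated animals (0.32) and with treatments averaged (0.35). In treated animals, 5 of the 71 rose and 5 fell over that interval (7.04% each, against 6.10% of all named genes in both directions together). The falls of *Pdk4* (-1.06), *Idh2* (-0.33) and *Gpd1* (-0.29) passed under each of 13 alternatives, that of *Pdp1* (-0.24) under 12 and that of *Slc37a4* (-0.28) under 12. Of the rises, those of *Hk3* (0.48), *Hkdc1* (0.32) and *Slc16a1* (0.30) passed under 11 of 13, and those of *Idh1* (0.28) and *Slc25a12* (0.16) under only 7 and 6. With treatments averaged, 3 of the 71 rose and 4 fell (4.23% and 5.63%, against 5.85% of all named genes in both directions together), *Pdk4* (-0.62) and *Gpd1* (-0.20) under each of 12 alternatives. *Slc25a1*, the citrate carrier, rose by 0.17 in that comparison but passed under only 4 of 12. Over the shorter intervals of treated animals, 1 of the 71 fell from the first to the fifth hour (1.41%, against 0.824% of all named genes). From the fifth to the ninth, 1 rose and 3 fell (1.41% and 4.23%, against 1.08%). That rise, of *Hk3*, passed under 5 of 13 alternatives, and the falls of *Idh2*, *Gpd1* and *Slc37a4* under 9, 11 and 11.

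**Figure D5:**
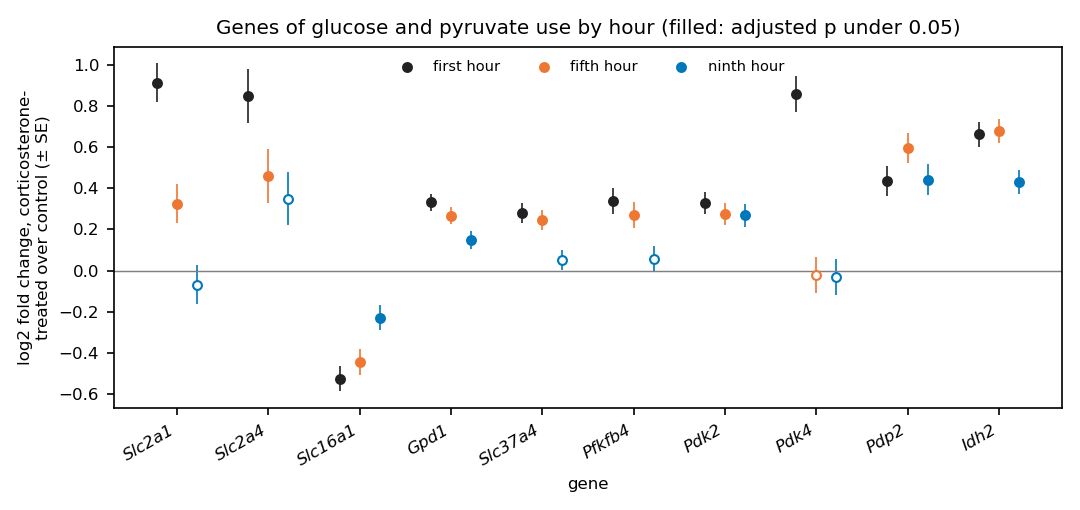
Log2 fold change of corticosterone-treated over control animals (y axis, with SE as bars, n = 8 arrays per hour) for 10 genes of glucose and pyruvate use (x axis), with colors for the hours and filled points for an adjusted p under 0.05. *Slc2a1* and *Pdk4* drop from 0.91 and 0.86 to -0.07 and -0.03, while *Idh2* stays between 0.43 and 0.68.

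Other cell types were read through their markers, whose part in the results above was not tested. The oligodendrocyte markers *Mbp*, *Mog* and *Mobp* had a summed signal intensity with medians of 12509.5, 12714 and 12514 in control and 15071, 15099 and 14156 in treated animals at the 3 hours, apart without overlap only in the ninth. *Mobp* was higher at 0.60, 0.51 and 0.35 (adjusted p = 3.7e-07, 9.1e-06 and 0.0026) and *Mbp* at 0.19, 0.18 and 0.17 (adjusted p = 0.0010, 0.0025 and 0.0049), on 8, 8 and 8 and 7, 7 and 8 of 8 arrays, while *Mog* stood at -0.07, -0.15 and -0.06 (adjusted p = 0.47, 0.081 and 0.56). For 4 microglial markers, brightest *Csf1r*, the medians of the sum were 13647, 14081 and 14812 in control and 12636, 13186 and 14131 in treated animals, with 3, 2 and 0 lower. Of these, *P2ry12* was lower on 8 of 8 arrays at each hour, without overlap in the first and the ninth, though it did not pass in the ninth. *Cx3cr1* was lower on 7, 7 and 2 of 8 arrays. The 3 mural markers, brightest *Rgs5*, gave 2603, 2719 and 2616 in control and 2348, 2419 and 2500.4 in treated animals, with 1 lower at each hour. The 6 markers of hippocampal principal neurons, brightest *Camk2a*, gave 85679, 94073 and 80803 in control and 84416, 86064 and 83919.8 in treated animals, with 1 lower, 1 higher and 1 higher, and the 4 pan-neuronal markers, brightest *Snap25*, gave 140575, 137647 and 139168 in control and 138177, 143985 and 142727 in treated animals. None of 5 choroid plexus, 4 red blood cell, 3 liver and 3 muscle markers passed at any hour in limma (unadjusted p under 0.05: 0, 3, 0 for red blood cells, 1, 1, 0 for liver, 2, 0, 2 for muscle and 0, 0, 0 for choroid plexus). *Kcne2*, *Alb* and *Ckm*, markers of choroid plexus, liver and muscle, were above background on 0 arrays. *Folr1*, *Cyp2e1* and *Myh4* of the same lists were above it on 15, 5 and 20 of 24 arrays in Cy3 and on 24, 16 and 23 in Cy5. The liver marker *Apoa2* (mean 2048) and the muscle marker *Acta1* (mean 377) were above it on 24 of 24 arrays in both dyes. *Hbb-bs* was not found by accession.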

How the data were processed

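Per the file headers, the intensity values are median pixel intensities in Cy3 and Cy5, per spot and for the background beside it, read by the authors with the scanner's extraction software. The deposited log2 values are ratios of Cy5 over Cy3, and they matched background-corrected, loess-normalized ratios computed here to a median absolute difference of 0.00119 over 56605 probes.

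Spots were background-corrected with normexp (offset 50 for p values, 0 for intensities and fold changes), loess-normalized within arrays with control spots at weight 0, and quantile-normalized between arrays, after which copies of a probe were averaged. Outlier spots, 80 to 276 per array, were left out. Separate-channel models were fitted in limma 3.58.1 (R 4.3.3, statmod 1.5.0, and version 1.17.8 of the data.table package) with an intraspot correlation of 0.285, and p values were adjusted over all probes by the method of Benjamini and Hochberg. Tables and figures used Python 3.11.15, pandas 2.3.3 and matplotlib 3.10.9. The code was tested on simulated data.

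All 36 members were named, with values per group for the 12 with the smallest adjusted p in any treatment comparison and for those significant between hours or in the change of effect. Of the further pathway genes, the 10 with the smallest adjusted p and those significant between hours were named; other marker genes were chosen after their values were seen. Of the planned lists, 1 pathway gene and 1 marker are not reported here. The members and lists were chosen with earlier results of these data known. Alternatives varied the offset, variance trend, channel, background correction, scaling, slides, hours fitted together, filter and choice of probe, and a run that kept outlier spots was chosen after seeing the data.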

Additional observations from a re-analysis of the deposited data

Results flagged for a closer look

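In 20 of 228 groups of 8 animals (8.77%), a single animal lay far from the other 7, where chance gives about 1 in 20 groups. Among the members, this animal had a signal intensity of 4519 for *Slc2a3* in controls of the first hour, 1042 for *Pfkfb4* in treated animals of that hour, and 40377 for *Eno1* in controls of the fifth. Low values stood apart for *Pdk2* (2753) and *Eno1* (29084) in treated animals of the first hour. Among other pathway genes of treated animals in the first hour, *Pdk4* (1533), *Slc2a4* (431), *Hk3* (129.5) and *Pdp1* (6811) had such an animal. Later hours had it for *Hkdc1* (491, treated, the fifth hour), *Idh1* and *Slc25a1* (348 and 1385, treated, the ninth), and *Pklr*, near background (46.8, control, the fifth, and 35.3, treated, the ninth).

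Summed markers had such an animal for mural cells (2355, control, the fifth hour, the lowest), choroid plexus (2745, treated, the ninth), red blood cells (77059, control, the fifth), liver (2643 and 2636, treated, the first and the fifth) and muscle (518, treated, the first).

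The treatment effect differed between hours, by a test of the difference itself, for *Slc2a1* (-0.98), *Pdk4* (-0.89 to the ninth and -0.88 to the fifth hour), *Cldn5* (0.61) and *Ly6c1* (-0.42), as log2 changes from the first hour.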

How the results depend on the processing

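Single values under the alternatives were tallied for the 12 members with values per group and for 15 named pathway genes, not for the others. Of 731 values of these members, 661 were unchanged, 38 lost significance, 6 gained it, 15 without a test moved and 11 reversed. A tested value was unchanged if it kept direction and side of the threshold. Values within a slide or as a median over probes had no test. They were unchanged if they shifted by less than the SD between arrays. Of 867 values of these pathway genes, 75 lost significance, 18 moved, 0 reversed and the rest were unchanged in this sense. The number of significant members was 8 without slide 2 in the first hour, 8, 11 and 11 without slides 1, 2 and 3 in the fifth, and 5 without slide 1 and 17 with the authors' ratios in the ninth. For treated animals between the first hour and the ninth it was 4 with processed signals, 3 with slide as a block, with outlier spots kept and among probes well above background, 1 without slide 1 and 1 without slide 3, in place of 2. It was 0 with Cy5 alone, without slide 2 and without slide 3 between the first and the fifth, and 1 with processed signals between the fifth and the ninth. The change of effect between the first hour and the fifth gave 1 without slide 1 and 1 among probes well above background. The averaged hour effect gave 4 with processed signals, 1 with slide as a block, 1 without slide 2, 1 with outlier spots kept and 2 among probes well above background. Leaving out a slide leaves fewer arrays; for the other settings the cause was not tested. Reversed values were 0.0241 for *Slc2a1* in the ninth hour without slide 3, -0.0173 for *Pfkfb4* in the ninth without slide 1, and -0.0547 for *Hk1* in the fifth with the median over probes. *Gapdh* reversed to 0.0116, 0.0683 and 0.0779 at the 3 hours with Aquantile, to 0.0220, 0.0869 and 0.0863 in the authors' ratios, and to 0.0883 and 0.107 in the first 2 of these hours with the median over probes. The *Slc2a1* change of effect to the ninth hour passed under 14 of 14 alternatives. Signal near background limits *Fbp2* and *Pklr*, the fixed dye order limits all treatment effects of constant size, and different animals at each hour limit comparisons between hours.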
